A study of Mus musculus with 4 samples.

Results

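Open chromatin of mouse bone mesenchymal stem cells (MSCs) was mapped by ATAC-seq, which uses a transposase to tag accessible DNA, and the regions described here are the distal peaks with a higher signal in normoxia than in hypoxia. They were chosen by 3 criteria, that a peak lies on an autosome more than 1 kb from every protein-coding start site of GENCODE M21, that its mean over the 4 libraries is at least 10, and that the lower of its normoxia values is at least 1.2 times the higher of its hypoxia values. Of 128055 peaks in the series, 65014 met the place and signal criteria and 1077 of these, 1.66%, met all 3. The mirrored rule, with hypoxia higher by the same ratio, took 28168 of the 65014 distal peaks (43.3%), and the same ratio rule took 27 of 13730 autosomal promoter peaks with a mean of at least 10 (0.197%). The measured values of all 4 libraries chose the members, so their difference between the groups is a description and carries no test.

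The cells came from the bones of male C57BL/6N mice aged 3 to 5 months and were sorted as CD45-/Ter-119-/Sca-1+/CD140a+, which removes blood cells and keeps MSCs. In hypoxia they were cultured at 2% O2 and in normoxia they were shifted to 21% O2, both with 5% CO2, and 50000 cells entered each of 2 libraries per group. Each value is a read number per peak scaled to 10000000 reads of the library and is not divided by peak width. The library totals lay between 26680936 and 29965523 reads. Per the study's methods, the sorted cells were divided between both oxygen levels and the 2 libraries of a group are independent biological experiments, while the labels do not say which libraries share a sort. Peaks outside the mitochondrial genome held 49.2 and 53.2% of the hypoxia reads but 31.0 and 35.2% of the normoxia reads, and a scaling by size factors raises the normoxia values relative to hypoxia. After RLE scaling (relative log expression, the median ratio to a common reference) the same rule took 8760 peaks, among them all 1077. Of 8 MSC markers, 7 had a promoter peak, with mean values from 25.1 to 649, and Lepr had none. Promoter peaks were absent for the blood markers Ptprc, Spi1, Hbb-bs and Cd3e, while Adgre1, Csf1r and Cd68 had one, with means from 2.98 to 388, and 3 of 4 endothelial markers had one, with means from 9.61 to 41. Their part in the results was not tested.

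Distal accessible regions are mostly enhancers, stretches of DNA that bind transcription factors and act on promoters over a distance, and the short words in their sequence name the factors that can bind them. TEAD proteins are the DNA-binding factors of the Hippo pathway, recruit the co-activators YAP and TAZ, and read the word GGAATG. AP-1, a dimer of Fos and Jun proteins, reads TGACTCA or TGAGTCA, and is a common opener of enhancers in cells of mesenchymal origin. The AP-1 word counted here, TGANTCA, is wider and also takes in A or T as the middle base. A word is counted here on both strands, so that GGAATG also appears as CATTCC.

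The TEAD word set the members apart most, and the sequences below show it where it was densest, in the 5 members with the most matches in their central 500 bases (ordered by match number, then by ratio). Windows of 200 bases are printed from RefSeq GRCm38.p6 (mm10), plus strand, in lower case, with TEAD and AP-1 words in capitals. Each is named by the nearest protein-coding gene and can reach outside the central 500 bases, as the window nearest Ddx20 does.
Nearest Ddx20, chr3:105666519-105666718: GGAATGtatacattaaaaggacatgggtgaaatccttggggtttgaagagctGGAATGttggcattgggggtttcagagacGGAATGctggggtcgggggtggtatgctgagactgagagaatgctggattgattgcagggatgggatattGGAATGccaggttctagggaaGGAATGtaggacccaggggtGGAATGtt
Nearest Aldoart1, chr4:73098090-73098289: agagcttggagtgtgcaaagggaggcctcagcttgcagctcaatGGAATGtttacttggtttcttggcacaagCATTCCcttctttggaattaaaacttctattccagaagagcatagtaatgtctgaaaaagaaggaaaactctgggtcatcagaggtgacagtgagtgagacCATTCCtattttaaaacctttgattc
Nearest Clasp1, chr1:118438020-118438219: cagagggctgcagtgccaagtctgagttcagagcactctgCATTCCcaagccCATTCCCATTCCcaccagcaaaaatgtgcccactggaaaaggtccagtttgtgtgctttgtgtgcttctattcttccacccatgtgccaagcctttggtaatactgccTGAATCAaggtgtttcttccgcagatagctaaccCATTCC
Nearest Actbl2, chr13:111031607-111031806: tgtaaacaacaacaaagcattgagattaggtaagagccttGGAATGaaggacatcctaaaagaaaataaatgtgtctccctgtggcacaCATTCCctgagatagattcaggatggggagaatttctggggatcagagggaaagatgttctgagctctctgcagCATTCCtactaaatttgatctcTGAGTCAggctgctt
Nearest B230118H07Rik, chr2:101025623-101025822: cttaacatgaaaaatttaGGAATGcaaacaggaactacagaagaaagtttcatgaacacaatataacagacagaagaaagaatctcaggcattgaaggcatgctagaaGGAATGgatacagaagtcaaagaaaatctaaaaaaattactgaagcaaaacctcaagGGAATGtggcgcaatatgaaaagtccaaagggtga

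These peaks were chosen after their sequences were counted. The window nearest Ddx20, an RNA helicase, holds 6 TEAD words and no AP-1 word, and lies in a peak that overlaps an exon of Kcnd3, which encodes a potassium channel. It measured 7.08 and 9.86 in hypoxia against 12.7 and 20.7 in normoxia. The window in an intron of Clasp1, a microtubule-binding protein, holds 4 TEAD words and 1 AP-1 word, TGAATCA, with A in the middle. The peak measured 39.3 and 38.4 in hypoxia against 48.7 and 52.4 in normoxia. The peak nearest Actbl2, an actin-like gene, had 10.3 and 9.52 against 19.1 and 20.7. That nearest B230118H07Rik had 9.55 and 14.3 in hypoxia against 22.9 and 27.4 in normoxia, and that nearest Aldoart1 had 6.02 and 10.2 against 12.7 and 16.7. In every one of these peaks the groups do not overlap, as the rule demands.

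The largest ratios and the largest group of members are shown by 3 further windows, in the same format. The largest ratio belonged to a peak nearest Emcn and the next to a peak in an intron of Ctnna3 nearest Gm10118, and neither has a TEAD word in its central 500 bases, so that the match shown lies nearer the peak's edge. The window nearest Fat4 belongs to the gene with most members.
Nearest Emcn, chr3:137011501-137011700: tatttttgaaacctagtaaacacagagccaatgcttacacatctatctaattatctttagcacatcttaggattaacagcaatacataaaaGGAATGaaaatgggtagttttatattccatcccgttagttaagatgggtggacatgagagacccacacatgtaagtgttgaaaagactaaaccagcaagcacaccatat
Nearest Gm10118, chr10:63868901-63869100: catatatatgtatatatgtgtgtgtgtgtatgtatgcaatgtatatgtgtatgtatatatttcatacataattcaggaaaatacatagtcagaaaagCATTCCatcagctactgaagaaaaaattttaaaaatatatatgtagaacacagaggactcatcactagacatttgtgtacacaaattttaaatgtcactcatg
Nearest Fat4, chr3:39113801-39114000: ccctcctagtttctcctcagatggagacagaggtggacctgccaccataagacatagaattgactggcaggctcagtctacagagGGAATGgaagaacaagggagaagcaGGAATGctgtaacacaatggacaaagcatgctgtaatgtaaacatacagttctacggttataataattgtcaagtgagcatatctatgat

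The TEAD word was present in the central 500 bases of 541 of 1077 members, 50.2%, against 33.0% of the 63937 other distal peaks and 33.2% of the 27113 other distal peaks with a mean under 20. Among all 2080 words of 6 letters (a word and its reverse complement counted as 1), CATTCC had the largest difference between members and other distal peaks, 17.2 percentage points. Words that overlap it took ranks 2 and 3. ACATTC ranked 2, with 45.8% of members against 30.1% of the others, while AGGAAT ranked 3, with 49.4 against 34.2%. Other high ranks held words that do not overlap it, such as AAGAAT at rank 4 (49.5 against 34.8%) and AAATAT at rank 6 (44.9 against 33.3%). CCTCCC ranked last, with 29.1 against 40.5%. The ranking is not matched for GC content. Several copies were also more frequent. Among members, 12.2% held 2 TEAD words, 3.25% held 3 and 0.836% held 4 or more, against 5.61, 0.802 and 0.0892% of the other distal peaks.

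The AP-1 word was less frequent in members, with 21.4% of members against 31.1% of other distal peaks. Members with a TEAD word and no AP-1 word made up 38.3%, against 22.7%, while an AP-1 word without a TEAD word was held by 9.47% against 20.8%. Both words together were about as frequent in members, 11.9%, as in the others, 10.3%. The GATA word AGATAA was held by 29.8% of members against 22.0%. The RUNX word TGTGGTT, read by factors that include the osteoblast regulator Runx2, was held by 20.1% against 16.0%. The RUNX share was 20.4% in the 878 distal peaks just outside the rule, at a ratio of 1.1 to 1.2. Within the members it was 18.0% at 1.2 to 1.3 and between 18.1 and 23.2% in the higher classes. The C/EBP word TTGCNNAA stood at 28.1 against 25.2%. Lower in members were the E-box CAGCTG, at 20.9 against 26.9%, the core GCGTG of the hypoxia response element, at 17.8 against 23.4%, and the antioxidant response element TGACNNNGC, at 16.9 against 19.9%. The A form of the hypoxia core, TACGTG, was at 4.55 against 5.14%, NF-kB, GGGNNTTCC, at 6.22 against 6.81%, the CTCF core at 5.48 against 6.51%, ETS, CCGGAAG, at 1.21 against 2.36%, and the nuclear receptor motif DR1 at 0.929 against 0.863%. Members had a lower median GC content, 42.6 against 45.4%, and these shares are not matched for it. Only the TEAD, AP-1, RUNX, GATA and E-box words were also compared within classes of GC content. A match is a description of the letters and not of binding.

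**Figure D1:**
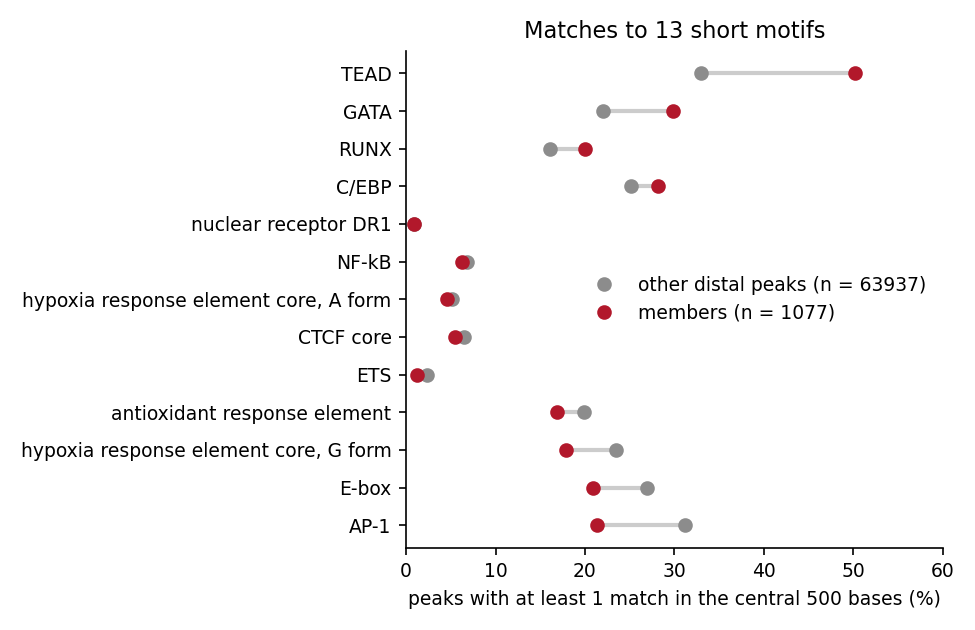
Percent of peaks with at least 1 match to each of 13 motifs in the central 500 bases (horizontal axis), for the 1077 members (red) and the 63937 other distal peaks (grey), ordered by the difference. The TEAD word stands at 50.2 against 33.0% at one end and the AP-1 word at 21.4 against 31.1% at the other.

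Across all distal peaks the share with a TEAD word was higher in classes of higher ratio, also below the threshold. It was 28.3% in the 4854 peaks with a ratio under 0.4, 35.2% at 0.7 to 0.8, 41% at 1 to 1.1 and 46.8% at 1.1 to 1.2, just outside the rule. Within the members it was 48.6% at 1.2 to 1.3 (444 peaks), 48.8% at 1.3 to 1.5 (371), 53.8% at 1.5 to 1.7 (160) and 61.6% at 1.7 to 2 (73), and then 44.8% at 2 and above, where there are 29 peaks. The AP-1 share went from 40.5% under a ratio of 0.4 to 26.8% at 0.7 to 0.8 and 21.9% at 1.1 to 1.2. Within the members it had no steady course, with 23.6% at 1.2 to 1.3, 19.9% at 1.3 to 1.5, 19.4% at 1.5 to 1.7, 23.3% at 1.7 to 2 and 10.3% in the 29 peaks at 2 and above.

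Both words were most dense at the peak centre. In members the TEAD word reached 1.74 and 1.75 matches per kb in the 100 bases on either side of the centre and 0.520 and 0.566 at 900 to 1000 bases from it, while in the other distal peaks it stood at 0.865 and 0.885 at the centre. The AP-1 word had 0.659 and 0.585 matches per kb at the centre of members against 0.926 and 0.912 in the other distal peaks. At 300 to 400 bases to the right of the centre the TEAD density of members, 0.539 per kb, was below that of the others, 0.714.

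**Figure D2:**
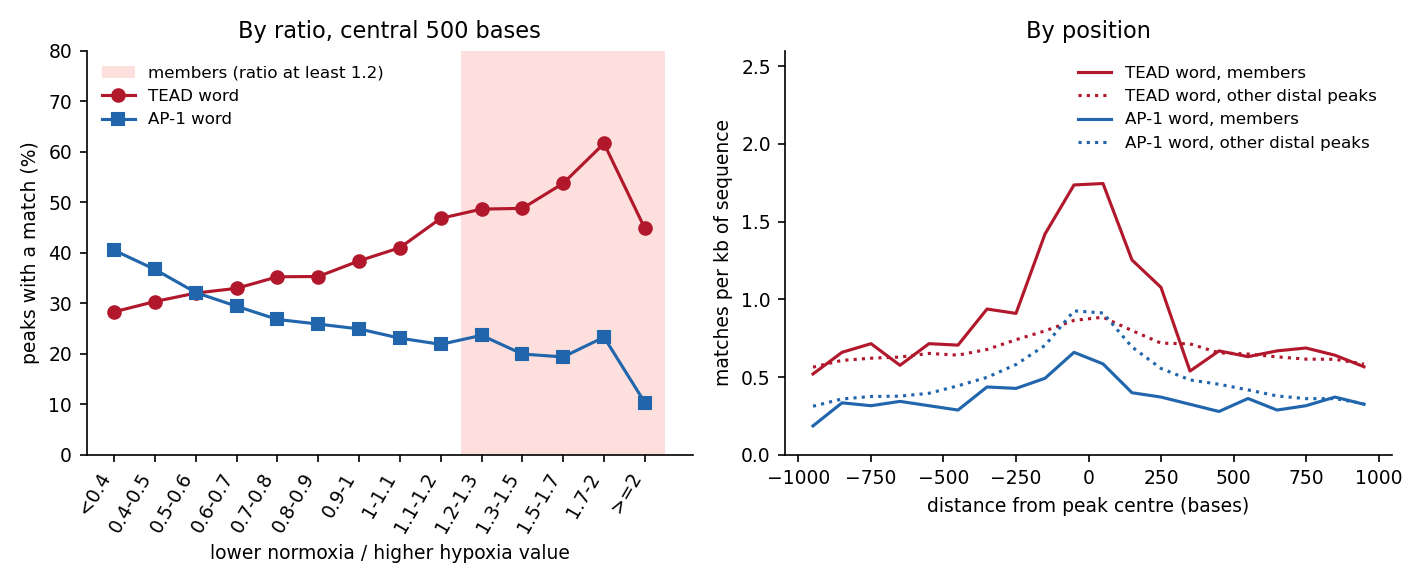
Left, percent of distal peaks with a TEAD word (red circles) or AP-1 word (blue squares) in the central 500 bases, by the ratio of the lower normoxia to the higher hypoxia value, with the members shaded. Right, matches per kb in bins of 100 bases by distance from the peak centre, in members (solid) and other distal peaks (dotted). The TEAD share climbs from 28.3% to 61.6% and drops to 44.8% in the last class of 29 peaks, and its density peaks at 1.75 matches per kb at the centre of members.

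The TEAD share was also compared within classes of GC content, place and signal. Members had a median GC content of 42.6% against 45.4% in the other distal peaks. In 7 classes of GC content the TEAD share of members was higher in each, from 49.0 against 34.2% under 38% GC, over 54.2 against 34.5% at 41 to 44%, to 37.8 against 27.7% at 53% and above. It was 53 against 34.0% between genes, 48.5 against 32.7% in introns and 41.2 against 30.0% in exons. Members with a mean of at least 30 had 50.0% (82 peaks) against 32.9%, and members with no repeated 32-base word had 52.5% (611 peaks) against 33.7%. The difference was smaller where at least 10% of the words were repeated in the genome, at 39.7% (126 members) against 33.0%. The AP-1 share of members was lower in each of the 7 GC classes. The smaller differences turned in some of them. At 50 to 53% GC (66 members) the GATA word was held by 13.6% of members against 15% of the others, the RUNX word by 9.09 against 13.1% and the E-box by 40.9 against 36.3%. RUNX was also lower in members at 53% and above, at 8.89 against 9.46%, and the E-box higher at 38 to 41%, at 18.5 against 17.7%.

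Weak and narrow peaks made up most members. The median member measured 10.6 and 11.2 in hypoxia against 17.2 and 18.4 in normoxia, which rest on 30 and 33 reads and on 46 and 55 reads. The median other distal peak had 25.5 and 27.9 in hypoxia against 19.1 and 20.7 in normoxia. The median member lay under the other distal peaks in normoxia too, by a smaller distance than in hypoxia. In all, members held 0.200 and 0.194% of the library in hypoxia against 0.309 and 0.324% in normoxia. A single peak over an annotated ribosomal RNA, given below, makes up a large part of this. It had 5307 and 4341 of a summed signal of 19964.6 and 19432.4 in hypoxia. In normoxia it had 7154 and 7518 of 30911.2 and 32372.5. The ratio of the lower normoxia to the higher hypoxia value had a median of 1.35 and reached 3.65, and the ratio of the group means had a median of 1.59. Of the members, 444 had a ratio under 1.3 and 29 a ratio of at least 2.

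**Figure D3:**
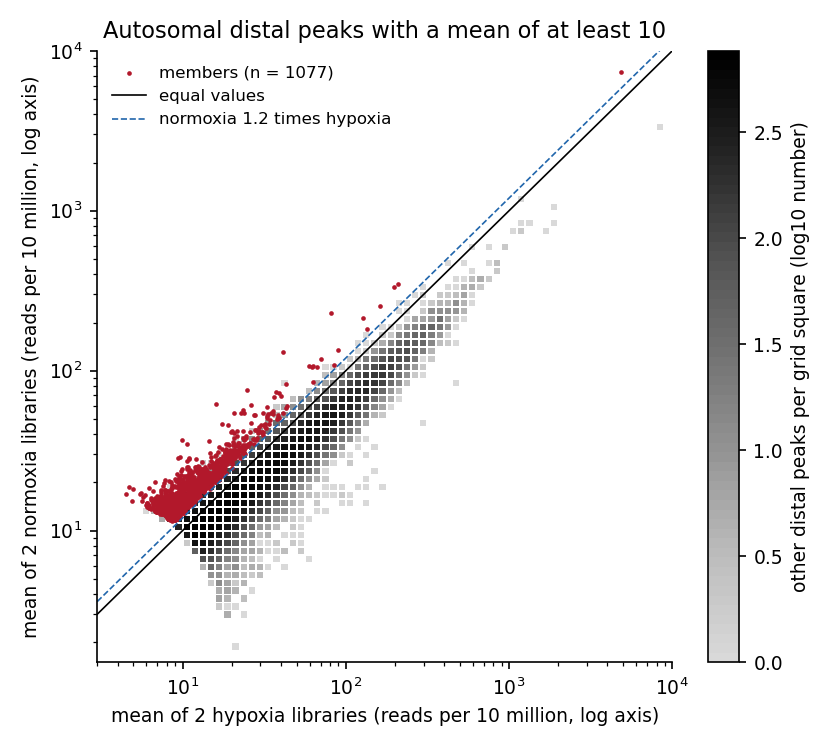
Mean of the 2 normoxia libraries against the mean of the 2 hypoxia libraries (normalised reads, log axes) for the members (red points) and the other distal peaks (grey squares, darker with more peaks). Most members sit at low values above the dashed line of 1.2 times, while the bulk of the other peaks lies below the line of equal values.

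By the mean of the 4 libraries, 854 members (79.3%) lay under 20, against 42.4% of the other distal peaks. The share of distal peaks that met the rule fell from 3.53% at means of 10 to 15 to 0.173% at means of 50 to 100. The width had a median of 1000 bases and ran from 500 to 11200, against a median of 1400 in the other distal peaks and 1000 in those with a mean under 20. Signal per kb of peak had a median of 14.3 in members, 16.6 in the other distal peaks and 13.2 in those with a mean under 20, so that members were close to other weak peaks in both width and density. By signal per kb, 2.48% of distal peaks under 10 were members and 0.263% at 30 to 50, but 5 of the 95 peaks at 100 and above (5.26%). At the threshold, the 3 members just inside had lower normoxia against higher hypoxia values of 14.0 and 11.7 nearest Mb, 19.1 and 15.9 nearest Jrkl and 12.7 and 10.6 in an intron of Maml3. The 3 just outside had 14.7 and 12.2 nearest Skap2, 40.4 and 33.7 nearest Id2 and 13.9 and 11.6 nearest Trpm1.

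**Figure D4:**
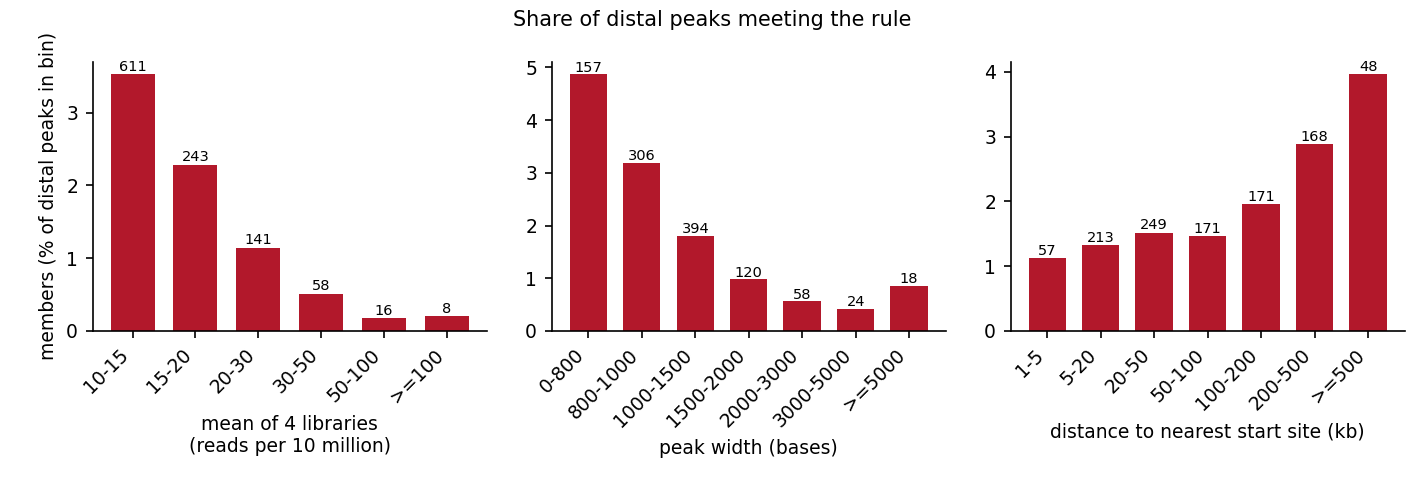
Percent of autosomal distal peaks with a mean of at least 10 that met the rule, by mean value, peak width and distance to the nearest protein-coding start site, with the number of members over each bar. The share falls from 3.53% to 0.173% with the mean up to 100, and rises from 1.12% within 5 kb to 3.96% beyond 500 kb of a start site.

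Members lay further from genes than other distal peaks. Between genes lay 572 (53.1%), in introns 408 (37.9%) and in exons 97 (9.01%), against 48.4, 39.8 and 11.8% of the other distal peaks. The median distance to a start site was 53418 bases against 37984, and 48 members (4.46%) lay more than 500 kb away, against 1.82%. The peak caller assigned no member to hypoxia alone, against 0.314% of the other distal peaks. The rule itself, which asks for higher normoxia values, leaves little room for such a call. Every member but 1 (99.9%) was assigned to both groups, against 99.7% of the other distal peaks. The exception, at chr18:40308001-40308600 in an intron of Kctd16, an auxiliary subunit of GABA-B receptors, had 20.5 and 11.6 in hypoxia against 69.3 and 53.7 in normoxia. Of 10 peaks given to normoxia only in the series, it was the member, 8 others were distal with a mean under 10, and the last lay at the promoter of Smok2b. By chromosome, from 1.07% of distal peaks (chromosome 8) to 2.17% (chromosome 14) were members.

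Members without repeated sequence were the majority, and a small part held much of it. No repeated word was found in 56.7% of members, against 47.3% of the other distal peaks and 59.3% of those with a mean under 20, while at least 10% of the words were repeated in 11.7, 7.44 and 8.06%. The median repeat-masked share was 14.9%, against 14.8% in the other distal peaks, but 28 members (2.6%) were masked over at least 60% of their length, against 0.572%. In 13 members (1.21%) at least 50% of the 32-base words occurred more than once in the genome, against 0.236%, and 25 (2.32%) lay within 100 kb of an assembly gap, against 0.790%. A read from repeated sequence can have several possible origins. The authors called peaks with a minimum mapping quality of 15, and the part of repeated sequence in the values was not tested.

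Of the 10 strongest members, 7 had at least 10% repeated words, against 11.7% of all members. By far the highest was chr17:39842701-39849100, which overlaps the annotated ribosomal RNA CT010467.1, with 5307 and 4341 in hypoxia against 7154 and 7518 in normoxia. A peak at chr6:3201001-3201800, 197772 bases from the nearest start site, that of Samd9l, shares 46.8% of its 32-base words with that ribosomal DNA peak, and its values were 18.4 and 21.8 against 42.4 and 41.4. The leftmost 200 bases of it, in the same format, show this sequence away from the annotated copy.
Nearest Samd9l, chr6:3201001-3201200: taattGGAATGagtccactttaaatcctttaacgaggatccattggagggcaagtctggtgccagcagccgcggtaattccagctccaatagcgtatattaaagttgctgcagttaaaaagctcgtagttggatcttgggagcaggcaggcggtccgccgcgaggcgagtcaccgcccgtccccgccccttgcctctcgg

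Another strong member, 88220 bases from Axin2, an inhibitor of Wnt signalling, measured 231 and 187 in hypoxia against 366 and 331 in normoxia, with a signal of 279 per kb, and 5.15% of its words were repeated. The peak nearest Gm8797 had 171 and 152 against 263 and 246, with 54.6% repeated words. In an intron of Cdk8, a kinase of the Mediator complex, a peak had 138 and 117 against 209 and 219. The member nearest Ly6c2 was among the 10 highest by ratio and by mean, at 82.4 and 80.6 against 252 and 204, with 41.6% repeated words. Those nearest Tmem267, Tcp10c, Hsf2, Vmn1r3 and Vmn1r2 completed the 10 strongest, with ratios from 1.21 to 1.48, and the 3 widest members were nearest Hsf2, Tcp10c and Zfp978, the widest of 11200 bases.

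The members with the largest ratios were a different set. The peak at chr3:137011501-137012400, 328667 bases from Emcn, a sialomucin of endothelial cells, had 4.60 and 4.76 in hypoxia against 20.2 and 17.4 in normoxia, on 13, 14, 54 and 52 reads. Its group means were 4.68 ± 0.113 and 18.8 ± 2.04 (SD, n = 2). In the intron of Ctnna3, an alpha-catenin gene, the peak nearest Gm10118 had 4.25 and 4.76 against 18.0 and 16.0. The member nearest Gdi2, a regulator of Rab proteins, had 11.3 and 8.5 against 40.1 and 33.7, with 26.5% repeated words. That nearest Polr3k, a subunit of RNA polymerase III, had 45.6 and 36.7 against 137 and 126, with 62.4% of its length masked. An intronic peak of E030030I06Rik had 12.0 and 9.18 against 37.1 and 32 and one of Schip1 6.37 and 4.76 against 16.9 and 17.4. Also among the 10 largest ratios were those of Kctd16 and Ly6c2, given above, and of a peak nearest Vmn1r238 that lay 5101 bases from an assembly gap, with 25.8 and 23.8 against 84.3 and 67.1.

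Most members stood alone. Another member lay within 50 kb of 114 members (10.6%), while 5.56% of the other distal peaks had a member at that distance. Within 10 kb the shares were 2.79 and 1.13%, and within 100 kb 17.5 and 10.7%. With at most 50 kb between neighbours there were 963 single members, 47 runs of 2, 4 runs of 3 and 2 runs of 4. Non-member distal peaks within 10 kb of a member (1210) had a median log2 ratio of normoxia to hypoxia of -0.26, against -0.39 in the other autosomal distal peaks, and 28.1% of them were higher in normoxia, against 20.05%. For promoter peaks within 10 kb (128) the median log2 ratio was -0.61 against -0.74.

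The longest run, chr3:39022701-39141000, held 4 members over 118.3 kb of intergenic sequence nearest Fat4, a giant cadherin. From left to right they had 9.55 and 9.86 in hypoxia against 16.9 and 16.0 in normoxia, 13.1 and 12.9 against 18.0 and 23.7, 9.20 and 7.14 against 15 and 13, and 7.43 and 8.16 against 14.6 and 15.7. Between them stood 7 other peaks, of which 4 had a higher mean in normoxia. The sequence of the chr3:39113601-39114600 member, with 3 TEAD words in its central 500 bases, is the one printed above, and its neighbours hold 1, 0 and 1. A further 2 members nearest Fat4, 448661 and 493361 bases from its start, had 7.08 and 5.78 against 13.5 and 17.7 and 6.37 and 8.84 against 19.5 and 18.7. At most 20.6% of the words of any of these 6 peaks were repeated, and 4 of the 6 had none.

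**Figure D5:**
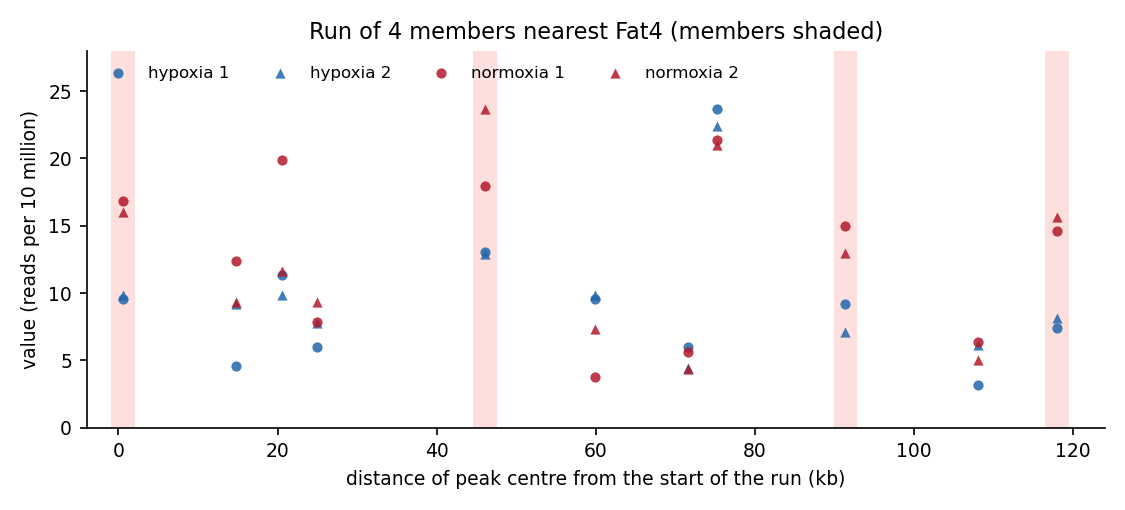
Values of the 4 libraries (normalised reads) in the 11 peaks of the run nearest Fat4, by the distance of the peak centre from the start of the run in kb, with hypoxia in blue, normoxia in red and the 4 members shaded. In the shaded peaks both normoxia values lie above both hypoxia values, and in the tallest of the others, at 75.2 kb, both lie below.

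The other runs were shorter and several were repeated. Another 4 members lay in chr4:147398001-147437600 nearest Zfp978 and Zfp982, zinc finger genes, with ratios of 1.28 to 1.49, and 1 peak among them went the other way, with 37.2 and 37.1 in hypoxia against 19.1 and 19.0. In chr2:181916701-181932500, nearest Polr3k and Gm14496, all 3 peaks were members, with ratios of 2.36 to 2.76 and masked shares of 62.4, 82.4 and 41%. The run at chr4:3050001-3087300, nearest the vomeronasal receptor gene Vmn1r2, had 3 members of 1.48 to 1.53. Less masked, at 3.00 to 21.1%, were the 3 peaks of chr7:98721001-98735500 nearest Thap12, with ratios of 1.25 to 1.42, and at 0 to 11.3% the 3 of chr9:97609801-97637700 nearest Trim42, with ratios of 1.21 to 1.52.

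The nearest genes numbered 951, of which 845 had 1 member, 90 had 2 and 14 had 3. Robo1, a receptor for Slit guidance cues, had 4 and Fat4 had 6. The 4 peaks nearest Robo1 had 7.43 and 7.14 in hypoxia against 15 and 15.7 in normoxia, 10.6 and 14.3 against 18.7 and 31.7, 8.85 and 10.2 against 15 and 12.7, and 7.08 and 9.52 against 14.6 and 12.0. The pair nearer the start lay in introns, and the others overlapped the non-coding gene 4930500H12Rik.

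Few members were nearest to the listed pathway genes, whose lists held from 46 to 200 distal peaks each. The shares of members, from 0 to 2.30%, lay on both sides of the 1.66% of all distal peaks. Among 9 gene lists, the 12 osteogenic genes had 87 distal peaks with a mean of at least 10, and 2 were members (2.30%), both nearest Bmp2, a bone morphogenetic protein. They lay 124559 and 186842 bases from its start, with 9.55 and 7.82 in hypoxia against 14.6 and 15 in normoxia, and 6.02 and 9.18 against 11.6 and 13.7. Of 73 distal peaks of the adipogenic genes, 63 of AP-1 and other immediate early genes and 65 of inflammatory and interferon genes, 0 were members, where the 1.66% of all distal peaks would give about 1 in each. The hypoxia response list had 1 of 75, in an intron 5160 bases from the start of Egln3, a HIF prolyl hydroxylase, with 7.08 and 9.18 against 12.0 and 13.3. The NRF2 list had 1 of 46, 138511 bases from the start of Slc7a11, the cystine transporter, with 5.66 and 8.84 against 12.0 and 16.0. Single members were nearest Hapln1 (chondrogenic list, 117 peaks), Igfbp3 (senescence and p53 targets, 71) and Postn (TGF-beta and matrix, 200). The median log2 ratio of the distal peaks of these lists lay between -0.66 and -0.39, against -0.44 in the other distal peaks.

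Most promoter peaks of the nearest genes that passed a test were lower in normoxia. Promoter peaks within 1 kb of a start site were found for 783 of the 951 genes and numbered 1014. In limma on log2(value + 1) after RLE scaling, with a false discovery rate under 0.01 over all peaks, 6 of them (0.592%) were higher in normoxia and 205 (20.2%) lower, beside 0.389 and 17.6% of all 15668 autosomal promoter peaks. Their median log2 fold change was -0.29, against -0.28 for all autosomal promoter peaks and 0.00 for all peaks. The RLE scaling itself sets the median of all peaks near 0. On values as deposited these medians were -0.75, -0.74 and -0.44. The libraries are those that chose the members. A fit without 1 library leaves 1 in a group, so only effect sizes are given for it. Without hypoxia library 1 the median log2 fold change was -0.27, against -0.25 for all autosomal promoter peaks. Without hypoxia library 2 it was -0.33 against -0.32. With all libraries, edgeR on the recovered reads called 6 promoter peaks of nearest genes higher and 233 lower. Of all 15668 autosomal promoter peaks edgeR called 96 higher and 3288 lower. Over all peaks it called 3257 higher and 7296 lower, beside 2262 and 5856 in limma.

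Some genes had a distal peak that met the rule beside a promoter that was lower. Promoter values here and below are as deposited, while fold changes and adjusted p follow the RLE scaling, which raises normoxia relative to hypoxia. Thbs1, which encodes the matrix protein thrombospondin 1, had promoter values of 2980 and 3851 in hypoxia against 1320 and 1444 in normoxia (log2 fold change -0.82, SE 0.0688, limma adjusted p = 1.35e-09). Its member, 306576 bases away and 700 bases wide, had 13.8 and 16.7 against 20.6 and 22.4. The promoter peak of Thbs1, chr2:118108501-118132900, is far wider than this member, and values are not divided by width. The promoter peak of Itgb8, an integrin subunit, had 205 and 233 against 63.0 and 77.8 (-1.15, SE 0.122, limma adjusted p = 1.9e-07), and a member over an exon 11.7 and 12.6 against 15.7 and 20.7. At Schip1 the promoter fell from 443 and 436 to 158 and 206 (-0.80, SE 0.104, limma adjusted p = 6.03e-06), 9793 bases from the intronic member given above. Bdnf, a neurotrophin, fell from 149 and 162 to 54.0 and 57.1, and Gbe1, the glycogen branching enzyme, from 260 and 262 to 93.0 and 115. Their members had 13.8 and 18.7 against 26.6 and 27.4, and 16.3 and 14.6 against 24.7 and 28.

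Of the 5 promoter peaks with the lowest p among those with a positive fold change, 3 were of predicted or unnamed genes. Repeated sequence was counted in distal peaks only, so its part in these promoter peaks is not known. The member nearest Gm10801 had 24.6% repeated words and 50.8% of its length masked. Gm21738 had 9.55 and 7.82 in hypoxia against 28.1 and 24.4 in normoxia (log2 fold change 1.94, SE 0.247, limma adjusted p = 4.76e-06), AW822073 had 6.02 and 4.42 against 10.1 and 14.7, and Gm10801 had 454 and 464 against 653 and 519. Pde1a, a phosphodiesterase, had 36.1 and 43.5 against 46.8 and 46.4. After the RLE scaling the log2 fold change was 0.82 for Gm10801 and 0.70 for Pde1a. At Myl12b, a regulatory light chain of myosin, the deposited values overlapped, with 205 and 237 in hypoxia against 198 and 241 in normoxia. The call (log2 fold change 0.46) rests on the RLE scaling. The promoter peak of Myl12b, chr17:70979101-70994800, is wide and reaches well beyond 1 kb from a start site.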

How the data were processed

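ATAC-seq was performed by the authors on 2 hypoxia-cultured and 2 normoxia-cultured libraries. Per the study's methods and the labels, the authors aligned reads to mm10 with Bowtie2, removed duplicates with Picard and called 1 peak set with chromstaR in differential mode (bins of 300 bases, steps of 100, mapping quality 15). The deposited values, named RPKM by the authors, are a signal per peak that is not divided by width. In each library 100% of values were whole multiples (within 0.01) of 1 step, which gave library totals of 26680936 to 29965523 reads. Whether these count fragments or positions is not known, and PCR copies are not separate molecules.

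Groups followed the labels. Members, gene lists and motifs were chosen with earlier results of these data known. Start sites were those of protein-coding genes in the GENCODE M21 basic set, with distances from peak edges. Members were named by fixed criteria (largest ratio, mean, width and runs, genes with 4 or more members, listed genes, nearest the threshold), and promoter peaks by the 5 lowest p per direction. Sequence, soft-masking and gaps of at least 10 kb came from RefSeq GRCm38.p6, and repeated words are 32-base words, taken every 10 bases, that occur more than once. Promoter peaks were tested with limma 3.58.1 (lmFit, eBayes with trend and robust, two-sided, R 4.3.3) on log2(value + 1), a scale that understates changes of low peaks, with Benjamini-Hochberg adjustment over 128055 peaks. The functions were tested on simulated data. edgeR 4.0.16 on the recovered reads was an alternative. With 2 libraries a group, p-values measure the spread between these libraries only. Distal members have no test. A marker, a member and a gene list that these criteria cover are not reported here.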

Additional observations from a re-analysis of the deposited data

How the results depend on the processing

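The number of members depended on the thresholds and on the scaling. It was 3484, 262 and 29 at a ratio of at least 1, 1.5 and 2, and 2766 and 223 at a mean of at least 5 and 20. With RLE size factors, equal totals and quantile normalisation it was 8760, 14790 and 7143. Without 1 library it lay between 1631 (without normoxia library 2) and 3695 (without hypoxia library 2), with 2297 without hypoxia library 1 and 3177 without normoxia library 1. Other start site distances and sets gave 1004 to 1074. The share with another member within 50 kb was 2.79 and 17.5% for windows of 10 and 100 kb, 24 and 4.2% at ratios of at least 1 and 1.5, and 7.17% at means of at least 20. The median width was 1100 and 900 bases at ratios of at least 1 and 1.5, 1400 at means of at least 20 and 900 at 20 or more per kb, and the median masked share 13.9, 17.4, 17.5 and 17.9% in the same order.

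The TEAD word stood in 37.4 and 65.6% of members for windows of 300 and 1000 bases (others 22.2 and 52.2%), in 45.3 and 55.0% at ratios of at least 1 and 1.5, in 41.2% with RLE size factors (others 32.2%), 39.3% with equal totals (others 31.7%) and 42.4% with quantile normalisation (others 32.2%), and in 44.9 to 46.2% without 1 library (others 32.6 to 33.0%). It was above the other distal peaks in each of these settings, which were chosen after seeing the data. The AP-1 word stood in 16.0 and 34.6% for the windows, 17.0% at means of at least 20, 24.4% with RLE, 25.7% with equal totals, 24.1% without repeated words and 21.3 to 24.9% without 1 library, below the others each time.

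Promoter peaks of nearest genes called higher and lower numbered 2 and 621 on values as deposited, 14 and 30 after cyclic loess, 17 and 338 at a false discovery rate under 0.05, 0 and 0 without trend and robust (33 and 242 at an unadjusted p under 0.05), 0 to 5 and 0 to 294 without 1 library, and, for those called lower, 92 with equal totals and 117 for genes within 100 kb. Same-numbered libraries did not deviate together from their group means (correlation 0.0103 over all peaks), and were not treated as pairs, although 2 pairs cannot settle this and the groups may share sorts. A replicate block gave 6 and 258, beside 122 and 3647 of all autosomal promoter peaks and 3912 and 8468 of all peaks. The other alternatives gave 5 to 7 and 171 to 233, beside 43 to 156 and 2111 to 3288 of all autosomal promoter peaks. The cause of these shifts was not tested.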

Other observations

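Outside the rule, 12 of 1176 distal peaks of the X chromosome with a mean of at least 10 met the ratio (1.02%), as did 2486 of 43816 autosomal distal peaks with a mean under 10 (5.74%).

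The peaks that the caller gave to normoxia only and that were too weak to be members included one nearest Cartpt at 3.54 and 2.72 in hypoxia against 16.5 and 16.0 in normoxia, one nearest Lcorl at 0.708 and 2.04 against 7.87 and 11.3, and one in an intron of Oxr1 with 0 in both hypoxia libraries against 6.75 and 6.67. The promoter peak of Smok2b, a kinase gene, had 1.77 and 3.06 against 15.4 and 22.4.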
